A study of Mus musculus with 9 samples.

Results

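Kidney RNA from *Gsdmd*-/- mice was compared with kidney RNA from WT mice given saline, at 3 libraries a group, which makes 6 of the 9 RNA-seq libraries of the study. The 6 libraries were chosen by the prefix of their sample titles (GKO and Con). The other 3, from WT mice given pristane (PIL mice), entered the estimate of spread and are set beside the values below. All mice carry the labels C57BL/6 and female. For the *Gsdmd*-/- group the labels give no treatment (none), while the paper describes these mice as given pristane, an oil used to bring on lupus in mice. PIL mice had 0.5 ml of pristane into the peritoneum. The saline group is WT, its treatment is also given as none, and the protocol in the labels gives it 0.5 ml of saline. That protocol, which the labels repeat for all 3 groups, puts the mice at 4 weeks of age at injection. Kidneys were taken 31 weeks after injection. The *Gsdmd*-/- mice came from a model animal centre, and the sources used here do not say which exons they lack. WT littermates are named in the paper for the pristane comparison, and for the saline group the origin is not stated in the sources used here. No source says that the libraries come from different mice, so the SDs and p-values below reflect how far libraries lie apart, which may be technical.

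Gasdermin D is cut by inflammasome caspases, and its freed N-terminal part forms pores in the plasma membrane through which interleukin-1 family cytokines leave and cells die by pyroptosis. In the kidney it has been studied in infiltrating leukocytes as well as in tubule cells. The mouse kidney is also a strongly sex-dimorphic organ. Androgens act on the proximal tubule, the segment that reclaims most of the filtered solutes and secretes drugs and toxins, and they raise or lower many of its transporters and metabolic enzymes. The filtration barrier is made by podocytes, whose foot processes are joined by slit diaphragms.

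Counts per gene summed to 13830183 to 14986683 in the *Gsdmd*-/- libraries and to 13961346 to 15382597 in the saline libraries, and mitochondrially encoded genes took 12.4% to 13.4% and 10.8% to 12.8% of them. Levels are given as CPM, counts per 1000000 counts of a library after TMM scaling, and groups were compared with edgeR's quasi-likelihood test over 14069 genes with Benjamini-Hochberg adjustment. The threshold for calling a gene was 0.05 on the adjusted p. Log2 fold changes above 0 mean a higher level in *Gsdmd*-/- kidneys. The saline libraries lay farther apart than the *Gsdmd*-/- libraries: between replicates the variance of counts was 8.28 to 13.8 times that of counting alone in the *Gsdmd*-/- group, and 27.3 to 54.1 times in the saline group. In the PIL group, which also enters the estimate of spread, it was 43.6 to 149 times. Since all saline libraries held reads of Y-linked genes and no *Gsdmd*-/- library did, as described next, genotype, the pristane of the paper and the Y-linked reads separate the same libraries, and their parts in any difference below cannot be told apart.

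The targeted gene and the Y-linked genes were examined first as checks on the labels. *Gsdmd* (ENSMUSG00000022575), on GRCm38 chromosome 15 from 75862327 to 75867408 of the plus strand, had 30, 27 and 24 counts in the *Gsdmd*-/- libraries and 96, 155 and 65 counts in the saline libraries. All 3 *Gsdmd*-/- libraries were below all 3 saline libraries, but reads of the gene remained in each of them. In CPM this was 1.90 ± 0.257 in *Gsdmd*-/- kidneys and 7.68 ± 3.63 in saline kidneys (mean ± SD, n = 3 each), and PIL kidneys had a mean of 12.4. The log2 fold change was -2.01 (standard error 0.48), with an adjusted p of 0.0601 from edgeR, so *Gsdmd* itself was not called. An exact 2-sided permutation test gave p = 0.1, the smallest that 3 libraries against 3 can give. The call depended on single libraries, since *Gsdmd* passed in 3 of the 9 fits that left out 1 library (lowest adjusted p = 0.0220, edgeR) and on only the 6 libraries (adjusted p = 0.0195, edgeR), and DESeq2 on the 9 libraries (0.00101) and limma-voom (0.0268) called it. A gene-level count does not show from which exons the remaining reads came.

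The Y-linked genes went against the label female of the saline group. *Ddx3y*, an RNA helicase of the Y chromosome, had 0 counts in each *Gsdmd*-/- library, 0 CPM in each PIL library, and 52.4, 44.7 and 74.0 CPM in the saline libraries. *Eif2s3y*, a translation initiation factor subunit, *Kdm5d*, a histone demethylase, and *Uty*, a demethylase homologue, had the same pattern. Against a floor of 3 counts over the group, *Ddx3y* was at least 820-fold lower in *Gsdmd*-/- than in saline kidneys, *Eif2s3y* at least 758-fold, *Kdm5d* at least 381-fold and *Uty* at least 364-fold. All 4 were called. Of 4 X-linked genes that escape inactivation, edgeR called none (2 had an unadjusted p under 0.05), limma-voom called 3 higher, DESeq2 on the 9 libraries 1, and edgeR or DESeq2 on only the 6 libraries 2. Over all genes, limma-voom called 1153 higher, DESeq2 462 on the 9 libraries and 635 on the 6, and edgeR 408 on the 6. *Kdm6a*, the X-linked homologue of *Uty*, had 43.4 ± 5.72 CPM in *Gsdmd*-/- kidneys and 25.6 ± 3.86 CPM in saline kidneys (SD, n = 3), a difference of 0.76 on the log2 scale (standard error 0.20, adjusted p = 0.0941, edgeR), and passed in 2 of the 9 fits that left out 1 library.

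Across all genes, 218 were higher and 205 lower in *Gsdmd*-/- than in saline kidneys, which is 3.01% of those tested (1.55% higher and 1.46% lower). Of these, 159 higher and 129 lower genes differed by at least 1 on the log2 scale, and 36 and 39 by at least 3. The median log2 fold change of all genes tested was -0.01. The libraries of the groups did not overlap for 24.8% of genes, so groups that do not overlap are common here and are read against that share. The first principal component of the 6 libraries held 53.4% of the variance, with the *Gsdmd*-/- libraries between -42.2 and -31.4 and the saline libraries between 21.5 and 46.5. The second, with 24.1%, separated saline replicate 2 (33.5) from saline replicate 3 (-49.8). The number of calls moved widely with single libraries. It fell to 42 higher and 63 lower genes without saline replicate 1, to 56 to 67 higher and 58 to 60 lower genes without any 1 *Gsdmd*-/- library, and came to 374 higher and 331 lower genes without PIL replicate 1. Of the 96 called genes named below, 42 were called in each of the 9 fits that left out 1 library, and the text says which of the others were not.

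**Figure D1:**
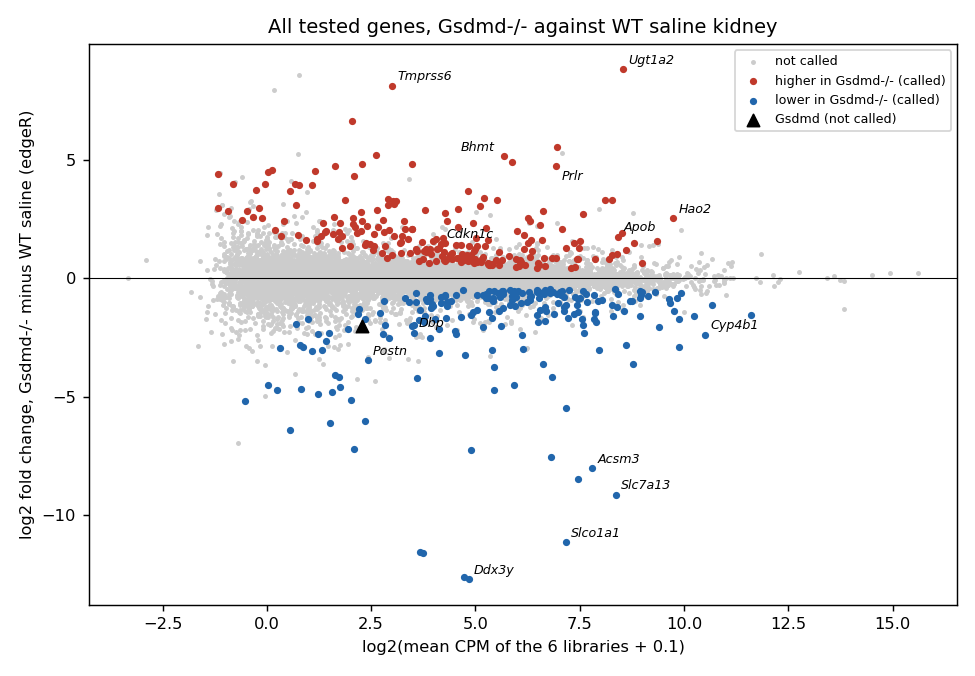
Log2 fold change of *Gsdmd*-/- minus WT saline from edgeR (vertical axis) against the mean level of the 6 libraries as log2(CPM + 0.1) (horizontal axis), 1 point per gene tested. The 218 genes called higher are red and the 205 called lower are blue, and *Gsdmd* (black triangle, -2.01) lies among genes that were not called.

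Genes with male-biased expression in mouse kidney were lower in *Gsdmd*-/- than in saline kidneys, and some were near the limit of detection there. Of 11 tested, 9 were called lower and none higher, beside 1.46% and 1.55% of all genes. The median log2 fold change was -4.72 against -0.01 for all genes. *Slco1a1*, an organic anion transporter of the proximal tubule brush border, stood at 0.274, 0.0757 and 0 CPM in the *Gsdmd*-/- libraries, against 426, 232 and 199 CPM in the saline libraries. This was a near loss of the transcript, at -11.15 on the log2 scale (standard error 0.59, adjusted p = 3.32e-05, edgeR). *Slc7a13*, the aspartate and glutamate transporter of the late proximal tubule, had 0.891, 0.530 and 2.01 CPM in *Gsdmd*-/- kidneys and 801, 515 and 657 CPM in saline kidneys, which edgeR called (log2 fold change -9.14, standard error 0.46, adjusted p = 2.63e-05). Its *Gsdmd*-/- and saline levels were separated by more than 2 orders of magnitude.

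Among the same list were enzymes of fatty acid and steroid metabolism. *Cyp2j13*, a P450 of the family that oxidises arachidonic acid, had 1.23, 0.606 and 1.07 CPM in *Gsdmd*-/- kidneys against 456, 295 and 299 CPM in saline kidneys (log2 fold change -8.47, standard error 0.57, adjusted p = 0.000174, edgeR). *Acsm3*, a mitochondrial medium-chain acyl-CoA synthetase, had 1.23, 2.58 and 1.34 CPM against 526, 294 and 513 CPM (-8.02, standard error 0.53, adjusted p = 0.000149, edgeR). *Cyp7b1*, an oxysterol and steroid 7-alpha-hydroxylase, had 7.95, 3.11 and 7.76 CPM against 391, 379 and 78.1 CPM (-5.49, standard error 0.74, adjusted p = 0.00554, edgeR), and saline replicate 3 was the lowest of the saline libraries. *Cyp4a12a*, the androgen-dependent 20-HETE synthase of mouse kidney, averaged 3.18 ± 1.68 CPM in *Gsdmd*-/- kidneys and 84.0 ± 39.6 CPM in saline kidneys (-4.72). *Cyp4b1*, a fatty acid hydroxylase, averaged 462 ± 92.1 CPM in *Gsdmd*-/- and 2424 ± 294 CPM in saline kidneys (log2 fold change -2.39). *Cyp2e1*, the ethanol-oxidising P450, and *Hsd11b1*, which regenerates active glucocorticoid, fell by 2.90 and 1.37, but the call of *Cyp2e1* ended without any 1 *Gsdmd*-/- library or saline replicate 1 or 2 (highest adjusted p = 0.117, edgeR) and that of *Hsd11b1* without *Gsdmd*-/- replicate 2 or saline replicate 1 (0.0792). Reads of *Cyp4a12a* and its close copy *Cyp4a12b* may be split by the counting.

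Not every member was called in the 9-library edgeR fit. *Kap*, the androgen-regulated kidney protein of the proximal tubule, had 8155, 7273 and 9892 CPM in *Gsdmd*-/- kidneys and 21309, 23267 and 18343 CPM in saline kidneys, groups that did not overlap (log2 fold change -1.31, standard error 0.59, adjusted p = 0.344, edgeR). On only the 6 libraries it was called lower (adjusted p = 0.00318, edgeR). *Odc1*, the rate-limiting enzyme of polyamine synthesis, had 552 ± 69.8 CPM in *Gsdmd*-/- kidneys and 1491 ± 954 CPM in saline kidneys, where saline replicate 1 stood highest (-1.43, standard error 0.44, adjusted p = 0.141, edgeR). *Pzp*, a broad protease inhibitor of the alpha-2-macroglobulin family that was not on this list, had the lowest adjusted p of the genes named here. It stood at 0.343, 0.379 and 0.401 CPM in *Gsdmd*-/- kidneys and 75.9, 49.3 and 52.5 CPM in saline kidneys (log2 fold change -7.27, standard error 0.26, adjusted p = 3.54e-06, edgeR). The spread within each group was small beside this difference.

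Female-biased kidney genes went the other way. Of 5 tested, 3 were called higher and none lower, beside 1.55% and 1.46% of all genes, with a median log2 fold change of 4.75. *Prlr*, the prolactin receptor, had 216, 209 and 277 CPM in *Gsdmd*-/- kidneys against 2.28, 3.29 and 20.4 CPM in saline kidneys (log2 fold change 4.75, standard error 0.71, adjusted p = 0.00912, edgeR). *Slc7a12*, an amino acid transporter of the proximal tubule, had 225, 168 and 338 CPM against 6.91, 3.51 and 5.08 CPM (5.56, standard error 0.78, adjusted p = 0.00730, edgeR). *Abcc3*, an efflux pump for glucuronides and bile salts, had 139, 63.3 and 140 CPM against 2.94, 3.36 and 5.01 CPM (4.91, standard error 0.58, adjusted p = 0.0030, edgeR). The calls of these 3 held in each fit that left out 1 library. *Cyp4a14*, a fatty acid omega-hydroxylase, averaged 761 ± 136 CPM in *Gsdmd*-/- and 111 ± 129 CPM in saline kidneys and was not called (2.77, adjusted p = 0.0842, edgeR), with saline replicate 3 at 260 CPM. Without saline replicate 3 it was called (4.37, adjusted p = 0.00102, edgeR). *Cyp2a4*, a steroid 15-alpha-hydroxylase, had overlapping groups and a log2 fold change of 0.10, whose sign turned without *Gsdmd*-/- replicate 3 or saline replicate 3. The PIL libraries were on the side of the *Gsdmd*-/- libraries for these genes, with means of 127 CPM for *Prlr*, 138 CPM for *Slc7a12* and 96.0 CPM for *Abcc3*, and 0.0958 CPM for *Slco1a1* and 0.677 CPM for *Slc7a13*.

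**Figure D2:**
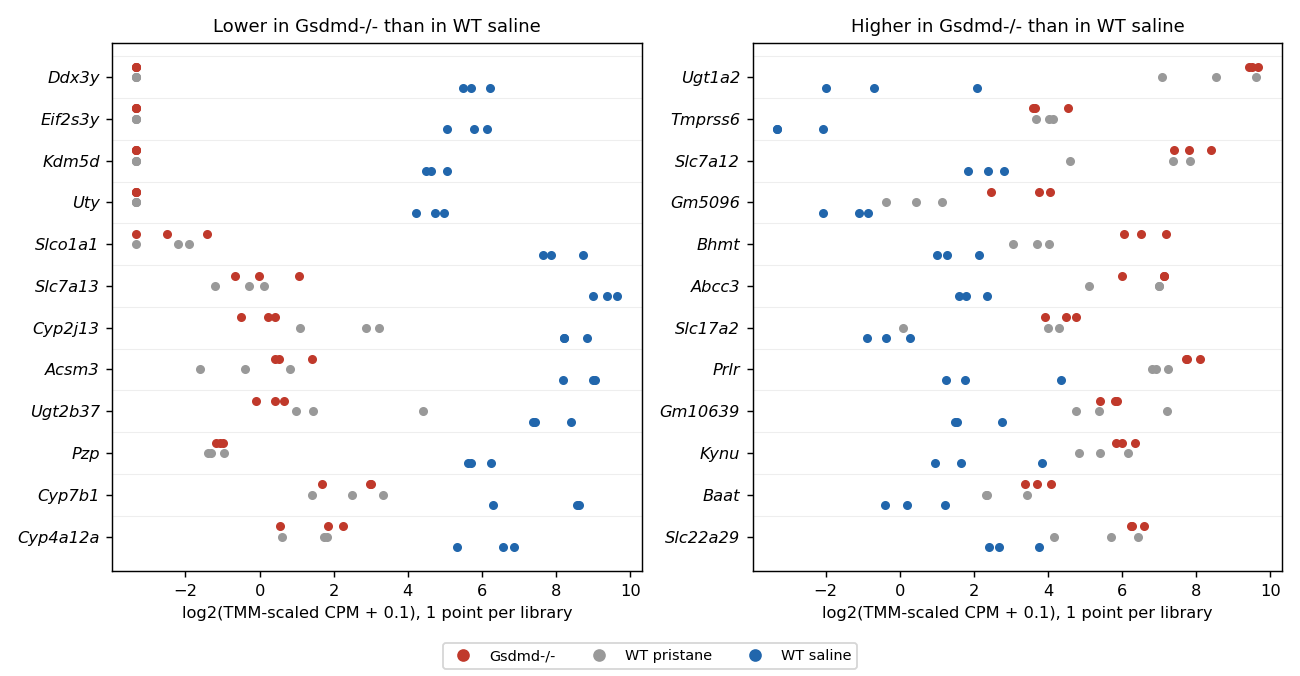
Levels in each library, as log2(TMM-scaled CPM + 0.1), of the 12 genes called lower (left) and the 12 called higher (right) with the largest log2 fold changes among genes of at least 10 CPM in the higher group. Each point is 1 library, and the rows of a gene hold *Gsdmd*-/-, WT pristane and WT saline from top to bottom. Only genes whose *Gsdmd*-/- and saline libraries do not overlap were taken, so the gap between these points was set by the choice. *Ddx3y*, *Eif2s3y*, *Kdm5d* and *Uty* are at 0 counts in the *Gsdmd*-/- and pristane libraries.

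The promoters of these 24 genes were searched on both strands for the letters AGAACA, the core of androgen and glucocorticoid receptor sites, TTCNNNGAA, the core of STAT sites, and CACGTG, the E-box of clock and MYC family factors, which do not overlap as words. The windows were the 250 bases before each start site in RefSeq (GRCm38.p6), where 9 of the 12 lower and 6 of the 12 higher genes had an entry. AGAACA was found in 1 of 9 lower and 0 of 6 higher genes, beside 16.1% of 32807 promoters of the same length. TTCNNNGAA was found in 0 of 9 and 2 of 6, beside 7.02% of promoters, and CACGTG in 1 of 9 and 0 of 6, beside 6.02%. A match is a string of letters and not a site in use. The windows of 2 genes that nearly vanished and 2 that were much higher are shown as hand-picked examples, with matches in capitals. They do not stand for the other windows. *Slco1a1* lies at chr6:141946963-141947212 on the minus strand and holds none of the 3 words, *Pzp* at chr6:128526721-128526970 on the minus strand and holds AGAACA, *Ugt1a2* at chr1:88200361-88200610 on the plus strand and holds none, and *Slc17a2* at chr13:23806743-23806992 on the plus strand and holds a STAT core.
Slco1a1: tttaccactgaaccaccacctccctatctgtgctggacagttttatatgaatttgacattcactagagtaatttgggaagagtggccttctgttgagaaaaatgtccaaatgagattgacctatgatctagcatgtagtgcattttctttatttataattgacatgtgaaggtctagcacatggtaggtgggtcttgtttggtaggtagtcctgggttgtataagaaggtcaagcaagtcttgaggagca
Pzp: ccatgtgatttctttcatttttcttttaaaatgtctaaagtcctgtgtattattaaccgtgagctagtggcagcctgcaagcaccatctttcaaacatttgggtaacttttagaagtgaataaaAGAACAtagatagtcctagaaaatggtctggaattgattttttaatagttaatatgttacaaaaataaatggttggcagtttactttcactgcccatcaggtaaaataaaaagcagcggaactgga
Ugt1a2: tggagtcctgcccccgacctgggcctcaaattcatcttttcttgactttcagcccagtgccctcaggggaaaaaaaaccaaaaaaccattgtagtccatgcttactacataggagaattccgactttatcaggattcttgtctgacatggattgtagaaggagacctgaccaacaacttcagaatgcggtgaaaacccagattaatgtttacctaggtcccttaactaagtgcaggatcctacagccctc
Slc17a2: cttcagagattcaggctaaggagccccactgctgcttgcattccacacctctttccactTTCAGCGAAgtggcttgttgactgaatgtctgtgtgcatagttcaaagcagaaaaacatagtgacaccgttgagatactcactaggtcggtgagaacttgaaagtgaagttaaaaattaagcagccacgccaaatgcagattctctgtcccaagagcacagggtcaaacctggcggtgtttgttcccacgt

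Transporters of organic anions and cations, which carry drugs, urate and metabolites across the tubule cell, moved in both directions. Of 29 tested, 5 were higher and 8 lower in *Gsdmd*-/- kidneys, beside 1.55% and 1.46% of all genes, and the list's median was 0.18. The lower genes include *Slco1a1*, already counted above with the male-biased genes. The basolateral uptake transporters differed among themselves. *Slc22a8* (OAT3) had 923, 1128 and 859 CPM in *Gsdmd*-/- kidneys and 269, 271 and 442 CPM in saline kidneys (log2 fold change 1.57, standard error 0.21, adjusted p = 0.00643, edgeR). *Slc22a6* (OAT1), with an overlapping range of substrates, went the other way at 557 ± 44.96 CPM in *Gsdmd*-/- and 1030 ± 163 CPM in saline kidneys (-0.89), as did the cation transporter *Slc22a2* (OCT2) at 181 ± 4.799 CPM in *Gsdmd*-/- kidneys and 340 ± 51.7 CPM in saline kidneys (-0.91). On the apical side *Slc22a12*, the urate transporter URAT1, had 532 ± 80.3 CPM in *Gsdmd*-/- kidneys and 1092 ± 170 CPM in saline kidneys (-1.04). The calls of *Slc22a6*, *Slc22a2* and *Slc22a12* ended without any 1 *Gsdmd*-/- library or saline replicate 1 (highest adjusted p = 0.114, edgeR).

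Other carriers, among them efflux pumps, had larger log2 fold changes in either direction. *Slc22a30* had 11.6, 10.7 and 12.98 CPM in *Gsdmd*-/- kidneys against 251, 162 and 231 CPM in saline kidneys (log2 fold change -4.19, standard error 0.30, adjusted p = 0.000249, edgeR), and the related *Slc22a28*, like it on chromosome 19, had 14.8 ± 1.81 and 180 ± 55.9 CPM (-3.60). *Slc22a29*, of the same family and chromosome, was higher instead, with 76.3, 96.6 and 75.01 CPM in *Gsdmd*-/- kidneys and 6.25, 5.15 and 13.3 CPM in saline kidneys (3.32, adjusted p = 0.0146, edgeR). Its call ended without any 1 *Gsdmd*-/- library or saline replicate 1 or 2 (highest adjusted p = 0.0947, edgeR). *Slco3a1*, a prostaglandin carrier, fell by 1.69 on the log2 scale, and *Slco4c1*, a digoxin and thyroid hormone carrier, fell by 2.15, a call that ended without *Gsdmd*-/- replicate 2 (adjusted p = 0.0593, edgeR). The efflux pumps *Abcc4* (MRP4) and *Abcb1a* (P-glycoprotein) were higher, at 121 ± 13.3 and 16.2 ± 0.736 CPM in *Gsdmd*-/- kidneys against 38.9 ± 10.9 and 3.05 ± 0.878 CPM in saline kidneys (1.63 and 2.41). The calls of *Slc22a8*, *Slc22a30*, *Slc22a28*, *Slco3a1*, *Abcc4* and *Abcb1a* held in each fit that left out 1 library.

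Enzymes that oxidise and conjugate steroids, fatty acids and foreign compounds followed the same mixed pattern. Of 46 cytochrome P450 genes tested, 4 were higher and 6 lower, beside 1.55% and 1.46% of all genes. Besides the male-biased members, *Cyp4a12b* was lower (log2 fold change -2.35). *Cyp2c23*, the arachidonic acid epoxygenase of mouse kidney, had 114, 150 and 130 CPM in *Gsdmd*-/- kidneys and 18.7, 19.7 and 29.7 CPM in saline kidneys (2.53, standard error 0.21, adjusted p = 0.00053, edgeR). *Cyp2d26* (1.47), *Cyp4f14* (2.88) and *Cyp2c68* (3.94) were the others called higher. The calls of *Cyp4a12b*, *Cyp4f14* and *Cyp2c68* ended without any 1 *Gsdmd*-/- or saline library or PIL replicate 2 (highest adjusted p = 0.203, edgeR), and that of *Cyp2d26* without *Gsdmd*-/- replicate 2 or saline replicate 1 (0.0804).

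Of 38 conjugating enzymes tested, 8 were higher and 2 lower, beside 1.55% and 1.46% of all genes. *Ugt1a2*, a UDP-glucuronosyltransferase, had the largest log2 fold change above 0 among the genes of this list. It had 691, 814 and 721 CPM in *Gsdmd*-/- kidneys, 134, 369 and 788 CPM in PIL kidneys and 0.515, 0.149 and 4.13 CPM in saline kidneys (log2 fold change against saline 8.82, standard error 1.03, adjusted p = 0.0030, edgeR). *Ugt1a1*, the bilirubin-conjugating isoform (3.72), and *Ugt1a6a*, which prefers phenols (2.01), were also higher, at 1.37 ± 0.318 and 7.45 ± 0.689 CPM in *Gsdmd*-/- kidneys against 0.0946 ± 0.0355 and 1.84 ± 0.805 CPM in saline kidneys. The *Ugt1a* genes share their last exons, so how reads were split among them is uncertain. *Ugt2b37* and *Ugt2b38*, of the family that conjugates androgens, were lower. *Ugt2b37* had 1.23, 0.833 and 1.47 CPM in *Gsdmd*-/- kidneys and 336, 172 and 167 CPM in saline kidneys (-7.55, standard error 0.99, adjusted p = 0.00489, edgeR), and *Ugt2b38* had 65.8 ± 2.77 and 811 ± 201 CPM (-3.62). Glutathione transferases were among the higher genes, namely *Gsta2* (1.92), *Gsta3* (0.87), *Gsta4* (2.82) and *Gsto1* (0.77), with the steroid sulfotransferase *Sult2a3* (2.97) and, outside the list, the alpha class member *Gm10639* (3.67). Their sequences are alike and reads may be shared. The calls of *Gsta2*, *Gsta3* and *Gsta4* ended without *Gsdmd*-/- replicate 2 or 3 or saline replicate 1 (highest adjusted p = 0.0693, edgeR), those of *Gsto1*, *Sult2a3* and *Ugt1a6a* without any 1 *Gsdmd*-/- library, PIL replicate 2 or saline replicate 1 or 2 (0.166), that of *Gm10639* without any 1 *Gsdmd*-/- library or saline replicate 1 or 2 (0.117), and that of *Ugt1a1* without saline replicate 1 (0.0544). Those of *Ugt1a2*, *Ugt2b37* and *Ugt2b38* held without any 1 library.

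**Figure D3:**
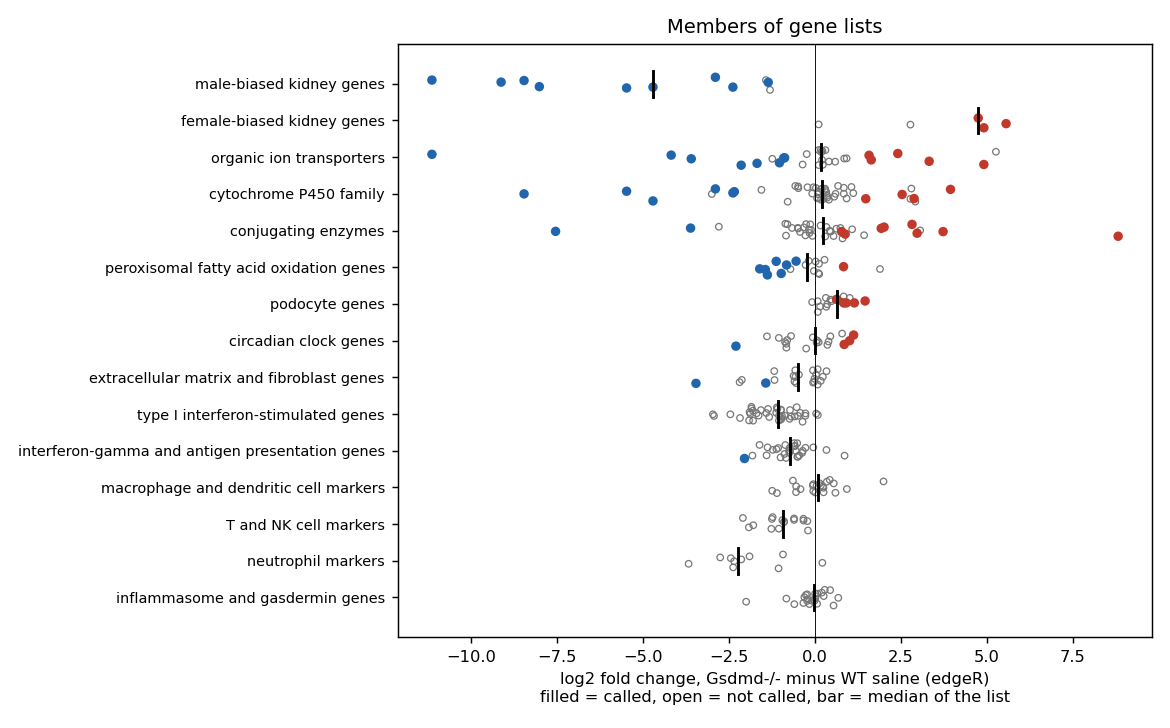
Log2 fold change of *Gsdmd*-/- minus WT saline (edgeR, horizontal axis) for the tested members of 15 gene lists, 1 point per gene, filled where called and open where not, with the list median as a bar. Male-biased genes lie to the left (median -4.72) and female-biased genes to the right (median 4.75), and metabolic lists hold calls on both sides. Type I interferon-stimulated genes lie mostly to the left (median -1.08) with no call.

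Some genes of peroxisomal fatty acid oxidation were lower. The lists of peroxisomal, lipoprotein, retinoid, steroid, *Nat8*, methionine and uroplakin genes were drawn up after the values had been seen and are descriptions only. Of 18 genes of peroxisomal fatty acid oxidation, which shortens very long and branched chains, 7 were lower and 1 higher. Over all genes 1.46% were lower and 1.55% higher. *Crot*, which exports the shortened chains as carnitine esters, had 207, 195 and 219.5 CPM in *Gsdmd*-/- kidneys and 641, 409 and 578 CPM in saline kidneys (log2 fold change -1.39, standard error 0.17, adjusted p = 0.00363, edgeR). Its groups did not overlap. Branched-chain oxidation was represented by *Amacr* (-1.45), *Acox3* (-0.99) and *Phyh* (-0.55). The reductase *Pecr* (-1.13) and the CoA hydrolase *Nudt19* (-1.61) were also lower. The thiolase *Acaa1b* was higher (0.83). *Crot* was called in each fit that left out 1 library. The call of *Nudt19* ended without any 1 *Gsdmd*-/- library or saline replicate 1 (highest adjusted p = 0.109, edgeR), that of *Acox3* without *Gsdmd*-/- replicate 1 or 3 or saline replicate 1 (0.0786), and that of *Amacr* without *Gsdmd*-/- replicate 1 or 3 (0.0578). Those of *Acaa1b*, *Pecr* and *Phyh* ended without any 1 *Gsdmd*-/- library, PIL replicate 2 or saline replicate 1, with saline replicate 2 for *Acaa1b*, 3 for *Pecr* and 2 or 3 for *Phyh* (0.189). On another list, of mitochondrial fatty acid oxidation and PPAR alpha target genes, 3 of 24 were higher and 1 lower. These counts stand beside the same shares of all genes, and *Acaa1b* is counted again there. *Fabp1*, the liver-type fatty acid carrier, had 8.37, 11.3 and 7.76 CPM in *Gsdmd*-/- kidneys and 0.147, 0.373 and 0.407 CPM in saline kidneys (4.84, standard error 0.48, adjusted p = 0.00121, edgeR). The mitochondrial thiolase *Acaa2* (1.001) also rose, with a call that ended without any 1 *Gsdmd*-/- library, PIL replicate 2 or saline replicate 1 or 2 (highest adjusted p = 0.154, edgeR).

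Lipoprotein assembly held higher genes. *Apob*, the structural protein of lipoprotein particles, had 510, 548 and 522 CPM in *Gsdmd*-/- kidneys, 256, 294 and 369 CPM in PIL kidneys and 166, 166 and 135 CPM in saline kidneys (log2 fold change against saline 1.76, standard error 0.16, adjusted p = 0.000895, edgeR). The *Gsdmd*-/- libraries lay close together and above all others. *Mttp*, which loads lipid onto it (1.37), and *Tm6sf2*, which enlarges the particles (2.08), were also higher, as was *Angptl8* (2.32), which takes part in the inhibition of lipoprotein lipase. Of 13 tested, 5 were higher and none lower, beside 1.55% and 1.46% of all genes. Retinoid metabolism had 5 of 15 higher and none lower, beside the same shares of all genes, with a list median of 1.27. *Rdh16f2*, a retinol dehydrogenase, had 558, 608 and 514 CPM in *Gsdmd*-/- kidneys and 34.4, 65.9 and 72.4 CPM in saline kidneys (3.28, standard error 0.38, adjusted p = 0.00297, edgeR). *Aldh1a1*, which makes retinoic acid (2.33), the retinol receptor *Stra6* (2.27), *Dhrs3* (0.83) and *Rdh19* (4.55) were the others. The calls of *Apob*, *Tm6sf2*, *Rdh16f2* and *Aldh1a1* held without any 1 library. Those of *Mttp*, *Stra6*, *Dhrs3* and *Rdh19* ended without any 1 *Gsdmd*-/- library or saline replicate 1, without saline replicate 2 (not *Dhrs3*) or 3 (*Dhrs3* and *Rdh19*) and without PIL replicate 2 (*Stra6* and *Rdh19*), with a highest adjusted p of 0.199 (edgeR), and that of *Angptl8* without saline replicate 1 (0.0547).

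Of 16 steroid dehydrogenase and reductase genes tested, edgeR called 6 lower and none higher, beside 1.46% and 1.55% of all genes. It called 2 members higher without PIL replicate 1 and on only the 6 libraries, as did limma-voom and DESeq2 on 9 or 6 libraries. Their totals over all genes were, in the same order, 374, 408, 1153, 462 and 635 higher. *Hsd17b11* had 104, 110 and 94.1 CPM in *Gsdmd*-/- kidneys and 466, 288 and 350 CPM in saline kidneys (log2 fold change -1.84, standard error 0.20, adjusted p = 0.00194, edgeR). *Hsd17b2*, which inactivates testosterone and oestradiol, was lower (-1.99), as were the 3-beta-hydroxysteroid dehydrogenases *Hsd3b2* (-1.39) and *Hsd3b3* (-0.56) and the 5-alpha-reductase *Srd5a1* (-1.28). The call of *Hsd17b11* held without any 1 library, and the calls of *Hsd17b2*, *Hsd3b2*, *Hsd3b3* and *Srd5a1* ended without any 1 *Gsdmd*-/- library or saline replicate 1, all but that of *Hsd17b2* without saline replicate 3, and those of *Hsd3b3* and *Srd5a1* without PIL replicate 2 (highest adjusted p = 0.184, edgeR). Of the *Nat8* family of N-acetyltransferases, which complete mercapturic acid synthesis from glutathione conjugates, 4 of 8 were lower and none higher. Over all genes 1.46% were lower and 1.55% higher. *Nat8* had 41.6, 54.3 and 41.4 CPM in *Gsdmd*-/- kidneys and 146, 184 and 145 CPM in saline kidneys (-1.79, standard error 0.18, adjusted p = 0.00121, edgeR) and was called in each fit. *Nat8f5* (-4.20), *Nat8f6* (-1.66) and *Nat8f2* (-1.55) lost their calls without any 1 *Gsdmd*-/- library, *Nat8f2* and *Nat8f6* also without saline replicate 1, and *Nat8f6* also without PIL replicate 2 or saline replicate 2 (highest adjusted p = 0.179, edgeR). The members are close copies.

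Of 11 methionine cycle genes tested, 1 was higher and 1 lower, beside 1.55% and 1.46% of all genes, and both act on homocysteine. *Bhmt*, which remethylates homocysteine to methionine with betaine, had 65.6, 145 and 90.2 CPM in *Gsdmd*-/- kidneys, against 8.13, 12.9 and 16.3 CPM in PIL kidneys and 1.91, 4.26 and 2.30 CPM in saline kidneys. The 3 groups did not overlap. Its log2 fold change against saline was 5.15 (standard error 0.43, adjusted p = 0.00053, edgeR), and against PIL it was 3.02 (adjusted p = 0.111, edgeR). *Cbs*, which commits homocysteine to cysteine synthesis, had 98.5, 119 and 109 CPM in *Gsdmd*-/- kidneys and 274, 224 and 215 CPM in saline kidneys (-1.12, standard error 0.13, adjusted p = 0.00249, edgeR). Both calls held without any 1 library. *Kynu*, the kynureninase of tryptophan breakdown, was higher by 3.39 and *Baat*, which conjugates bile acids with taurine, by 3.33, as were the phosphate transporter family member *Slc17a2* by 4.83 and *Gm5096*, of which no role is given here, by 5.19. The calls of *Kynu* and *Slc17a2* ended without any 1 *Gsdmd*-/- library, PIL replicate 2 or saline replicate 1 or 2, and that of *Slc17a2* also without saline replicate 3 (highest adjusted p = 0.151, edgeR).

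Iron handling genes had 2 higher and none lower of 12, beside 1.55% of all genes higher. *Tmprss6*, the serine protease that lowers hepcidin in liver by cutting hemojuvelin, had 12.4, 11.97 and 23.0 CPM in *Gsdmd*-/- kidneys and 0, 0 and 0.136 CPM in saline kidneys. Pooled over libraries this was 682 counts against 2 counts, a ratio of 333 with a 95% counting interval of 91.9 to 2757, and the gene was called. *Trf*, plasma transferrin, had 114, 94.4 and 98.2 CPM in *Gsdmd*-/- kidneys and 29.9, 23.3 and 23.1 CPM in saline kidneys (log2 fold change 2.00, standard error 0.27, adjusted p = 0.00519, edgeR). Both calls held without any 1 library. PIL kidneys averaged 15.4 CPM of *Tmprss6* and 141 CPM of *Trf*. In the sterol and lipid synthesis list, *Elovl6*, which extends palmitate, was the single call of 20 (1.82), and among 24 proximal tubule markers *Ggt1*, the gamma-glutamyl transferase of the brush border, was the single one (-0.64). With 3.01% of all genes called, 1 call in lists of this size says little about the lists. Of the 24 proximal tubule markers, 16 were positive. Limma-voom called 7 of them higher and 1 lower, DESeq2 on the 6 libraries 6 and 1, and edgeR on the 6 libraries 2 and 1. Over all genes these fits called, in the same order, 1153 and 1049, 635 and 605, and 408 and 358. The calls of *Elovl6* and *Ggt1* ended without any 1 *Gsdmd*-/- library, PIL replicate 2 or saline replicate 1 or 2 (highest adjusted p = 0.207, edgeR). The proximal tubule list summed to 30760 to 35180 CPM in *Gsdmd*-/- kidneys and to 22900 to 30200 CPM in saline kidneys, so the defining genes of kidney cortex were present in both groups.

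Some podocyte genes were higher in *Gsdmd*-/- than in saline kidneys. Of 19 tested, 5 were called higher and none lower, beside 1.55% and 1.46% of all genes. Of the same 19, 18 had a positive log2 fold change, and the median was 0.62. *Cdkn1c*, the cell cycle inhibitor that marks mature podocytes, had 23.6, 30.2 and 25.4 CPM in *Gsdmd*-/- kidneys and 10.2, 10.1 and 8.60 CPM in saline kidneys (1.45, standard error 0.19, adjusted p = 0.00514, edgeR). *Nphs1*, nephrin of the slit diaphragm, had 42.4, 44.4 and 41.6 CPM in *Gsdmd*-/- kidneys and 17.2, 15.4 and 25.5 CPM in saline kidneys (1.14, standard error 0.20, adjusted p = 0.0194, edgeR). The groups did not overlap for either gene, and saline replicate 3 was the highest saline library for *Nphs1*. *Synpo*, the actin-binding synaptopodin, had 103 ± 5.78 CPM in *Gsdmd*-/- and 54.8 ± 13.4 CPM in saline kidneys (0.91). PIL kidneys lay near the *Gsdmd*-/- kidneys, at a mean of 28.1 CPM for *Cdkn1c*, 34.1 CPM for *Nphs1* and 96.4 CPM for *Synpo*.

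The podocyte list summed to 1951, 1932 and 2046 CPM in *Gsdmd*-/- kidneys and to 1346, 1225 and 1701 CPM in saline kidneys. Whether a kidney held more podocytes or more RNA per podocyte cannot be told apart in bulk RNA, and the same holds for every cell type below. *Cdkn1c* was called in each fit that left out 1 library. The list had 1 call without any 1 *Gsdmd*-/- library or saline replicate 1, 2 without saline replicate 2, 3 without PIL replicate 2, and 7 or 8 without any other single library. The calls of *Nphs1* and *Synpo* ended without any 1 *Gsdmd*-/- library or saline replicate 1, that of *Nphs1* also without saline replicate 2 (highest adjusted p = 0.108, edgeR) and that of *Synpo* also without PIL replicate 2 (0.120). Of 18 kidney endothelial, 14 loop of Henle and distal tubule and 16 collecting duct genes edgeR called none, with 2, 3 and 2 at an unadjusted p under 0.05, while DESeq2 on the 9 libraries called 0, 1 and 0 and limma-voom 3, 3 and 1. Among all 14069 genes, 2055 had such a p, and DESeq2 called 462 higher and 447 lower and limma-voom 1153 and 1049. On only the 6 libraries, edgeR called 3 and DESeq2 5 of the loop of Henle and distal tubule genes higher, beside 408 and 635 of all genes.

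**Figure D4:**
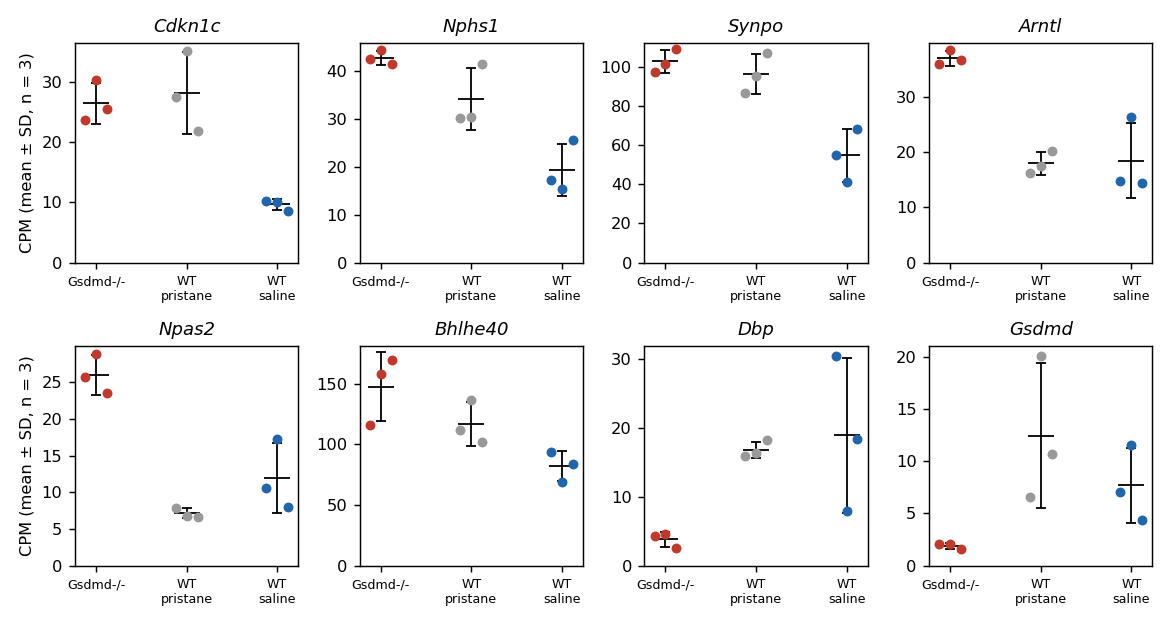
CPM of 3 podocyte genes, 4 circadian clock genes and *Gsdmd* in each library of *Gsdmd*-/-, WT pristane and WT saline kidneys, with points for libraries and lines for the mean ± SD (n = 3). The podocyte genes are higher in *Gsdmd*-/- than in saline kidneys without overlap, *Dbp* is lowest in *Gsdmd*-/- kidneys, and *Gsdmd* keeps 1.90 CPM in *Gsdmd*-/- kidneys.

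Clock genes had 3 higher and 1 lower of 20, beside 1.55% and 1.46% of all genes. They belong to the feedback loop in which ARNTL (BMAL1) and its partners drive the transcription of their own repressors. *Arntl* had 35.9, 38.5 and 36.6 CPM in *Gsdmd*-/- kidneys, against 16.2, 17.5 and 20.2 CPM in PIL kidneys and 14.8, 26.3 and 14.4 CPM in saline kidneys (log2 fold change against saline 1.002, standard error 0.22, adjusted p = 0.0463, edgeR). Its partner *Npas2* had 25.8, 28.9 and 23.5 CPM in *Gsdmd*-/- kidneys, 7.91, 6.80 and 6.70 CPM in PIL kidneys and 10.7, 17.2 and 8.06 CPM in saline kidneys (1.12, standard error 0.25, adjusted p = 0.0470, edgeR). For both genes the *Gsdmd*-/- libraries were above all other libraries, and saline replicate 2 was the highest of the rest for *Npas2* and *Arntl*. *Dbp*, an output factor that peaks when *Arntl* is low, had 4.32, 4.62 and 2.54 CPM in *Gsdmd*-/- kidneys, 15.9, 16.3 and 18.1 CPM in PIL kidneys and 30.4, 7.99 and 18.3 CPM in saline kidneys (-2.31, standard error 0.43, adjusted p = 0.0252, edgeR). The repressor *Bhlhe40* was higher (0.85, adjusted p = 0.0419, edgeR). Without any 1 *Gsdmd*-/- library or saline replicate 1 these 4 calls ended, except that of *Bhlhe40* without *Gsdmd*-/- replicate 1. Those of *Arntl*, *Npas2* and *Bhlhe40* also ended without PIL replicate 2 or saline replicate 3, and that of *Bhlhe40* without saline replicate 2, with a highest adjusted p of 0.193 for *Arntl*, 0.198 for *Npas2*, 0.117 for *Dbp* and 0.176 for *Bhlhe40* (edgeR), and no clock gene was called without *Gsdmd*-/- replicate 2 or 3 or saline replicate 1. The sources used here do not give the hour at which kidneys were taken, and its part in the result was not tested.

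Of 22 genes of extracellular matrix and fibroblasts, edgeR called 2 lower and none higher, beside 1.46% of all genes lower. The count of lower calls moved with the fit, to 0 without any 1 *Gsdmd*-/- library, 4 without PIL replicate 1, 1 without any 1 saline library, 7 on only the 6 libraries (edgeR) and 8 with limma-voom or DESeq2 on the 6 libraries. For all genes, edgeR on the 6 libraries called 358 lower, limma-voom 1049 and DESeq2 on the 6 libraries 605. *Postn*, periostin, had 0.960, 0.606 and 1.004 CPM in *Gsdmd*-/- kidneys, 3.36, 4.35 and 1.20 CPM in PIL kidneys and 7.13, 5.53 and 16.1 CPM in saline kidneys (log2 fold change -3.47, standard error 0.58, adjusted p = 0.0144, edgeR). *Dcn*, the collagen-binding proteoglycan decorin, had 24.1, 17.5 and 23.6 CPM in *Gsdmd*-/- kidneys, 91.2, 101 and 40.1 CPM in PIL kidneys and 51.6, 66.2 and 58.7 CPM in saline kidneys (-1.44, standard error 0.31, adjusted p = 0.0401, edgeR). Both calls ended without any 1 *Gsdmd*-/- library, and that of *Dcn* also without any 1 saline library (highest adjusted p = 0.0905 for *Postn* and 0.181 for *Dcn*, edgeR). The fibrillar collagens *Col1a1* and *Col3a1* had groups that did not overlap and were not called on the 9 libraries, at 12.9 ± 3.56 and 24.9 ± 6.86 CPM in *Gsdmd*-/- kidneys and 59.1 ± 22.8 and 109 ± 50.8 CPM in saline kidneys (-2.20 and -2.13, adjusted p = 0.205 and 0.173, edgeR). On only the 6 libraries both were called lower (adjusted p = 0.0147 and 0.0293, edgeR).

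Of 5 uroplakins tested, which are the membrane plaque proteins of the urothelium that lines the renal pelvis, 3 were lower in *Gsdmd*-/- kidneys. Over all genes 1.46% were lower. The 6 genes of the list summed to 4.73, 1.14 and 1.81 CPM in *Gsdmd*-/- kidneys, 2.69, 3.82 and 2.48 CPM in PIL kidneys and 19.7, 20.01 and 38.8 CPM in saline kidneys. *Upk1a* (log2 fold change -2.19, adjusted p = 0.131) and *Upk3b* (-2.76, 0.0922) were not called by edgeR. *Upk3a* had 3 counts in the *Gsdmd*-/- libraries together and 231 in the saline libraries, a ratio of saline to *Gsdmd*-/- of 78.8 (95% counting interval 26.6 to 385), and *Upk2* had 1 and 115 counts, a ratio of 118 (20.7 to 4688). *Upk1b* fell by 4.82 on the log2 scale, a call that ended without any 1 *Gsdmd*-/- library, PIL replicate 2 or saline replicate 1 or 3 (highest adjusted p = 0.152, edgeR). The sources used here do not give how much renal pelvis each piece of kidney held, and its part in these values was not tested.

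No gene of the type I interferon-stimulated list was called by edgeR on the 9 libraries, and 1 saline library stood far above the others. Of 40 type I interferon-stimulated genes none was called in either direction by edgeR, 38 had a negative log2 fold change, and the median was -1.08 against -0.01 for all genes. DESeq2 on the 9 libraries called 4 of them lower and limma-voom 6, none higher, and on only the 6 libraries edgeR called 1 and DESeq2 10 lower. These fits called, in the same order, 447, 1049, 358 and 605 of all genes lower. In edgeR 27 of the 40 had an unadjusted p under 0.05, beside 2055 of all 14069 genes. Leaving out PIL replicate 1 or 3 gave 1 lower call and leaving out saline replicate 3 gave 2. *Irf7*, the interferon-induced master factor, had 15.3, 16.7 and 20.2 CPM in *Gsdmd*-/- kidneys, 95.1, 71.7 and 26.8 CPM in PIL kidneys and 31.2, 346 and 24.6 CPM in saline kidneys (-2.94, standard error 0.96, adjusted p = 0.172, edgeR). *Isg15*, the ubiquitin-like modifier, had 3.70, 3.48 and 3.61 CPM in *Gsdmd*-/- kidneys and 7.06, 48.3 and 4.54 CPM in saline kidneys (-2.47, standard error 0.85, adjusted p = 0.195, edgeR). For both genes every *Gsdmd*-/- library was below every saline library, and saline replicate 2 stood far above the others. *Zbp1*, a sensor of Z-form nucleic acids that can start pyroptosis and necroptosis, had the lowest p of the list, at 1.44, 1.44 and 1.74 CPM in *Gsdmd*-/- kidneys and 6.91, 24.7 and 4.95 CPM in saline kidneys (-2.97, standard error 0.68, adjusted p = 0.0542, edgeR).

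Without saline replicate 2 the median of the type I interferon-stimulated genes was -0.35 and 34 of 40 were negative, with no call. As deviations from each gene's mean over the 9 libraries, the medians of the list were -0.51, -0.68 and -0.38 in the *Gsdmd*-/- libraries, 0.58, 0.32 and -0.10 in the PIL libraries, and -0.05, 1.27 and -0.48 in the saline libraries, so saline replicate 3 lay within the range of the *Gsdmd*-/- libraries. Of 30 interferon-gamma and antigen presentation genes, 1 was lower, beside 1.46% of all genes. *Iigp1*, an interferon-inducible GTPase, had 18.1, 10.8 and 12.9 CPM in *Gsdmd*-/- kidneys and 41.8, 91.5 and 41.1 CPM in saline kidneys (log2 fold change -2.06, standard error 0.46, adjusted p = 0.0470, edgeR), a call that ended in 8 of the 9 fits without 1 library (highest adjusted p = 0.207, edgeR). The related *Irgm2* had 31.6 ± 6.77 CPM in *Gsdmd*-/- and 66.8 ± 22.4 CPM in saline kidneys and was not called (-1.08, adjusted p = 0.0580, edgeR). The median of this list was -0.74, and -0.29 without saline replicate 2, where 1 gene was higher and none lower. *Irf3*, the factor that starts interferon transcription, had 56.1 ± 1.89 CPM in *Gsdmd*-/- and 61.4 ± 12.8 CPM in saline kidneys (-0.13, adjusted p = 0.835, edgeR), with overlapping groups.

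**Figure D5:**
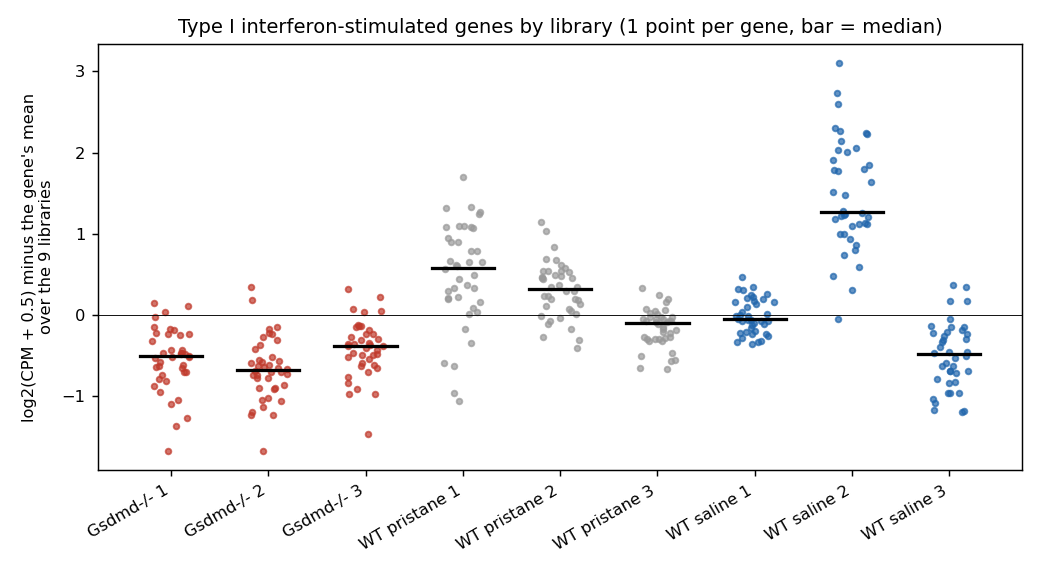
Level of each of 40 type I interferon-stimulated genes in each library, as log2(CPM + 0.5) minus the gene's mean over the 9 libraries (vertical axis), with 1 point per gene and the median as a bar. The medians of the *Gsdmd*-/- libraries lie at -0.51, -0.68 and -0.38, and among the saline libraries replicate 2 stands apart at 1.27.

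Of 23 inflammasome and gasdermin genes, edgeR called none on the 9 libraries (2 at an unadjusted p under 0.05), DESeq2 on the 9 libraries 1 lower and limma-voom 2 lower. On only the 6 libraries edgeR and DESeq2 each called 1 lower. That single gene was *Gsdmd* itself in the DESeq2 fits and in the 6-library edgeR fit. Of the 23 in the 9-library edgeR fit, 11 were positive and 12 negative, and the median was -0.02. *Casp1*, the protease that cuts GSDMD downstream of canonical inflammasomes, had 2.54, 2.42 and 3.35 CPM in *Gsdmd*-/- kidneys, 10.3, 7.82 and 5.19 CPM in PIL kidneys and 2.65, 2.31 and 2.30 CPM in saline kidneys. Its *Gsdmd*-/- and saline libraries overlapped, and the difference was 0.19 on the log2 scale (standard error 0.30, adjusted p = 0.854, edgeR). *Casp4*, the lipopolysaccharide-sensing caspase of the non-canonical pathway, had 3.43 ± 0.651 CPM in *Gsdmd*-/- and 6.15 ± 5.32 CPM in saline kidneys (-0.84, adjusted p = 0.635, edgeR), and its sign turned without saline replicate 2 (0.13). *P2rx7*, the ATP-gated channel upstream of NLRP3, was 5.84 ± 0.846 and 3.66 ± 0.567 CPM (0.67, adjusted p = 0.310, edgeR), and *Gsdme*, the gasdermin cut by caspase-3, 23.0 ± 1.02 and 29.2 ± 6.80 CPM (-0.34, adjusted p = 0.414, edgeR). *Serpinb1a*, an inhibitor of neutrophil proteases and inflammatory caspases, had 15.0 ± 2.19 CPM in *Gsdmd*-/- and 15.2 ± 2.99 CPM in saline kidneys (-0.02, adjusted p = 0.983, edgeR). Of 60 genes tested within 1 Mb of *Gsdmd*, edgeR called none (8 at an unadjusted p under 0.05), DESeq2 1 lower on the 9 libraries and 3 lower on the 6, and limma-voom 1 higher and 5 lower, and their median was -0.12. Across all 14069 genes, 2055 had an unadjusted p under 0.05 and limma-voom called 1153 higher and 1049 lower. DESeq2 called 447 lower on the 9 libraries and 605 on the 6.

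None of 22 macrophage and dendritic cell, 16 T and NK cell, 9 B and plasma cell and 10 neutrophil markers was called by edgeR, with 0, 2, 1 and 3 at an unadjusted p under 0.05. DESeq2 on the 9 libraries called none of them, limma-voom 2 T and NK cell markers lower, and DESeq2 on the 6 libraries 1 T and NK cell and 1 neutrophil marker lower. Beside these stand 2055 of all 14069 genes with an unadjusted p under 0.05. Limma-voom called 1049 of all genes lower and DESeq2 on the 6 libraries 605. The macrophage list had a median of 0.09, with sums of 274 to 413 CPM in *Gsdmd*-/- kidneys and 193 to 527 CPM in saline kidneys. *Trem2*, a lipid receptor of macrophages, had 0.549, 0.833 and 1.27 CPM in *Gsdmd*-/- kidneys, 14.1, 9.84 and 1.96 CPM in PIL kidneys and 0.368, 0.224 and 0.0678 CPM in saline kidneys (log2 fold change 1.99, adjusted p = 0.352, edgeR). The neutrophil list, which included the calprotectin genes *S100a8* and *S100a9*, had a median of -2.25 and no member whose groups were apart. It summed to 8.57, 13.5 and 9.57 CPM in *Gsdmd*-/- kidneys and to 48.7, 50.7 and 7.52 CPM in saline kidneys, so that saline replicate 3 was the lowest of the 6. The defining neutrophil gene Ly6g was under the filter on low counts. All 16 T and NK cell markers were negative (median -0.93), among them the T cell kinase *Lck* at 1.75 ± 0.145 CPM in *Gsdmd*-/- and 4.15 ± 1.55 CPM in saline kidneys (-1.24, adjusted p = 0.314, edgeR). *Jchain*, the joining chain of secreted IgA and IgM, had 82.3, 38.6 and 91.3 CPM in *Gsdmd*-/- kidneys, 539, 681 and 81.8 CPM in PIL kidneys and 20.4, 11.8 and 0.949 CPM in saline kidneys (2.68, standard error 0.94, adjusted p = 0.206, edgeR).

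None of 21 cytokine and chemokine genes and 24 cell cycle genes was called by edgeR, with 3 and 2 at an unadjusted p under 0.05. The number over all 14069 genes was 2055. DESeq2 on the 9 libraries called 1 cytokine gene and no cell cycle gene higher, and limma-voom 1 and 2. Counted over all genes, DESeq2 called 462 higher and 447 lower and limma-voom 1153 and 1049. On only the 6 libraries DESeq2 called 2 cytokine genes higher and 4 lower and edgeR 1 higher, and neither called a cell cycle gene. There DESeq2 called 635 of all genes higher and 605 lower, and edgeR 408 and 358. Of the 21 cytokine and chemokine genes, 15 had a negative and 6 a positive log2 fold change, and the median was -0.23. Among the positive ones, *Ccl3*, a chemoattractant of myeloid cells, averaged 1.39 ± 0.547 CPM in *Gsdmd*-/- and 0.479 ± 0.0411 CPM in saline kidneys (log2 fold change 1.53, adjusted p = 0.121, edgeR). *Cxcl14*, also positive, averaged 34.1 ± 7.44 and 16.6 ± 1.99 CPM (1.04, adjusted p = 0.131, edgeR). *Mki67*, the proliferation marker, had 3.98, 3.56 and 3.55 CPM in *Gsdmd*-/- kidneys and 5.88, 4.63 and 31.6 CPM in saline kidneys (-1.93, adjusted p = 0.304, edgeR). The cell cycle list had a median of -1.05, and -0.12 with 1 call higher without saline replicate 3, which stood apart. None of 18 tubular injury genes was called on the 9 libraries by edgeR (1 at an unadjusted p under 0.05) or DESeq2, and limma-voom called 1 higher and 2 lower. On only the 6 libraries edgeR called 2 lower and DESeq2 1 higher and 4 lower, and edgeR called 1 lower without PIL replicate 1. *Krt18*, a keratin of simple epithelia, was at 12.97 ± 1.90 CPM in *Gsdmd*-/- and 28.9 ± 6.51 CPM in saline kidneys (-1.15, adjusted p = 0.328, edgeR), with an adjusted p of 0.0110 in edgeR on only the 6 libraries. Against PIL kidneys, edgeR on the 9 libraries called no gene in *Gsdmd*-/- kidneys in either direction, with 2942 genes at an unadjusted p under 0.05 and a lowest adjusted p of 0.111. On only the 6 *Gsdmd*-/- and PIL libraries edgeR called 1 gene higher and none lower (lowest adjusted p = 0.0487). DESeq2 on the 9 libraries called 176 higher and 702 lower and limma-voom 3236 higher and 3212 lower.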

How the data were processed

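The authors isolated RNA with TRIzol, sequenced it on an Illumina instrument, aligned reads to the mouse genome (mm10, GRCm38) and counted them with HTSeq. The paper's methods name Hisat2 for the alignment and TopHat2 alignments as what HTSeq counted, and the tool versions are not given in the sources used here. The values used are raw read counts per gene as deposited, for 21935 genes, with no normalization. The deposited FPKM values were made by the authors from these counts with gene length and depth (ratio to recomputed values 0.999994 to 0.999996), and were not used. By Ensembl ID 21816 genes matched GENCODE M21.

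Genes passing edgeR's filterByExpr (14069) were scaled by TMM and tested with the robust quasi-likelihood F-test across the 3 groups (6 residual degrees of freedom), with Benjamini-Hochberg adjustment over all genes. A standard error is the log2 fold change over the square root of F. The script was tested on simulated data. Counting intervals cover counting error only. Tools were edgeR 4.0.16, DESeq2 1.42.0 and limma 3.58.1 under R 4.3.3.

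The genes named are *Gsdmd*, in each direction at most 12 called genes (largest fold change, non-overlapping groups, 10 CPM or more where higher), at most 4 lowest-p members of a list, and genes the paper names for this model. Some genes that the rule takes are not reported here. Other called list members were named after their values were seen, to spell out a count. Members and lists were chosen with earlier results of these data known, and 7 of the 47 lists were added after the values were seen. Alternatives were other scalings and filters, a replicate block, DESeq2, limma-voom with quality weights, only the 6 libraries, each library left out, and stricter thresholds, with DESeq2 on 6 libraries added after seeing the data.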

Additional observations from a re-analysis of the deposited data

How the results depend on the processing

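As reported, 218 genes were higher and 205 lower in *Gsdmd*-/- than in saline kidneys. DESeq2 on 9 libraries gave 462 and 447, limma-voom with quality weights 1153 and 1049, only the 6 libraries 408 and 358, and DESeq2 on 6 libraries 635 and 605. At an adjusted p under 0.01 there were 55 and 66, and with a log2 change of 1 or more, 159 and 129. Leaving out 1 library gave 42 to 374 higher and 58 to 331 lower genes. RLE and upper-quartile scaling, no filter and 10 counts in every library stayed within 1.5 times of the reported counts, as did the replicate block (183 and 164, of which 164 and 150 were called without it). Deviations of same-numbered *Gsdmd*-/- and saline libraries from their group means correlated at -0.000935, -0.138 and -0.0423. Those of differently numbered libraries correlated at -0.156 to 0.184. With 3 libraries a group, such values cannot show whether libraries of the same number were handled together. The causes were not tested.

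Of 127 named genes, 96 were called, 42 of them under every alternative that gave a value, and none of the 96 reversed. *Cyp2a4* reversed with limma-voom (-0.0125) and without *Gsdmd*-/- or saline replicate 3 (-0.37 to 0.49 over fits without 1 library), *Casp4* without saline replicate 2 (-1.25 to 0.13), and *Serpinb1a* with upper-quartile scaling (0.0148), limma-voom (0.0243) and without *Gsdmd*-/- replicate 1 or 3 or saline replicate 3 (-0.14 to 0.15). Calls ending without single libraries are given beside the genes.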

Other observations

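The gasdermin C genes *Gsdmc2* and *Gsdmc3*, paralogues of *Gsdmd* that also lie on chromosome 15 and were on no list and were chosen after their values were seen, were lower in *Gsdmd*-/- kidneys. *Gsdmc2* had 0.549, 0.0757 and 0 CPM in *Gsdmd*-/- kidneys, 0, 0 and 0.527 CPM in PIL kidneys and 7.42, 9.71 and 6.10 CPM in saline kidneys (log2 fold change -5.15, standard error 1.02, adjusted p = 0.0310, edgeR). *Gsdmc3* had 0.686, 0.0757 and 0 CPM in *Gsdmd*-/- kidneys and 6.91, 8.81 and 3.18 CPM in saline kidneys (-4.57, standard error 0.90, adjusted p = 0.0298, edgeR). The copies are alike and reads may be shared, and both calls ended without *Gsdmd*-/- replicate 2 or 3 or saline replicate 1 or 2, and that of *Gsdmc2* also without *Gsdmd*-/- replicate 1 (highest adjusted p = 0.166, edgeR). The uroplakins were also low in the *Gsdmd*-/- and PIL libraries. Within the saline group the order differed, since saline replicate 3 had the highest uroplakin sum (38.8 CPM) and the lowest *Gsdmc2* and *Gsdmc3*. The part of the uroplakin-bearing tissue in this result was not tested.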
